A study of Mus musculus with 48 samples.

Results

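The genes described here are Dbp, Tef and Hlf, which encode the 3 PAR bZIP transcription factors (basic leucine zipper proteins with a proline- and acid-rich domain), and Nfil3, which encodes the repressor NFIL3, also called E4BP4. They were taken by name from the table of raw read counts, where each had 1 row among 25229 gene symbols. The rule for membership used names alone, but the members were chosen with earlier results of these data known. Counts came from RNA sequencing of male C57Bl/6J mice kept on chow and a 12-h light and 12-h dark cycle at 27 °C. Every mouse of every group, controls included, carried loxP-flanked alleles of both Nr1d1 and Nr1d2, the genes of the clock repressors REV-ERBα and REV-ERBβ. Every mouse also received an AAV8 vector by tail vein at 6 to 10 weeks of age, 2 to 4 weeks before collection at 10 to 12 weeks. The vector expressed EGFP (Control) or Cre recombinase (HepDKO) from the TBG promoter, which is active in hepatocytes. The deletion was thus directed at liver, while the RNA came from punches of the hypothalamic arcuate nucleus and from left nodose ganglia. Liver was not analysed here, so the deletion itself was not checked. Collection was at ZT4, ZT10, ZT16 and ZT22, where zeitgeber time (ZT) is hours after lights on. Each group of 1 tissue, 1 genotype and 1 time had 3 libraries, which gave 16 groups and 48 libraries. A library pooled arcuate punches of 3 to 4 mice or ganglia of 4 mice.

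DBP, TEF and HLF bind a shared DNA element, the D-box, and activate transcription from it. NFIL3 binds the same element and represses. In the textbook scheme, CLOCK and BMAL1 drive the PAR bZIP genes through E-boxes, while REV-ERB and ROR receptors act on Nfil3 through ROR response elements, so that activators and repressor reach the D-box at opposite times of day. These factors are called output factors because they pass circadian timing on to enzymes, transporters and nuclear receptors, best known in liver, and mice that lack all PAR bZIP factors develop seizures. That scheme is background, and the measurements below concern RNA only.

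Stretches before the annotated starts are shown because motifs of this scheme were searched there. RefSeq start-site windows (build GRCm38.p6) matched all 4 genes, Tef with 2 starts. Each window searched held the 250 bases before a start, of which only parts are printed, and letters were searched on both strands. In the GENCODE annotation, whose starts differ, all 250 bases of the first Tef window, 159 of the Dbp window and 34 of the Nfil3 window lie within exons of the same gene. The motifs were the E-box CACGTG, the hexamer AGGTCA bound by REV-ERB and ROR receptors, the D-box TTANNTAA and the cyclic AMP response element TGACGTCA. The stretches below are written 5′ to 3′ on the strand of the gene, with motif matches in capitals.
Dbp, chr7:45704997-45705087, plus strand: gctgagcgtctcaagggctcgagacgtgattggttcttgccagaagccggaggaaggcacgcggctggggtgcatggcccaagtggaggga
Tef, second start, chr15:81811219-81811338, plus strand: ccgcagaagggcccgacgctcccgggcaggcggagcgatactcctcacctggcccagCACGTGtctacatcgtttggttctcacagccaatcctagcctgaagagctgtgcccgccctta
Hlf, chr11:90390918-90391037, minus strand: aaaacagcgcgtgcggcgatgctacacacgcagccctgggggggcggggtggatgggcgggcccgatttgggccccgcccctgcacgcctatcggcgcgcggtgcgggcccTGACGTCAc
Nfil3, chr13:52981040-52981069, minus strand: tagcgcggcgctcggaacTGACCTactaac
Both Tef windows held 1 E-box, and 6.02% of all 32851 windows of the same length held at least 1. The window of the first Tef start also held a D-box match, TTAGATAA, against 5.43% of all windows. The Hlf window held the cyclic AMP response element 9 bases before the start, which 1.55% of all windows held. The Nfil3 window held TGACCT, the reverse complement of AGGTCA, beginning 12 bases before the RefSeq start and inside the GENCODE exon, and 14% of all windows held AGGTCA on either strand. The Dbp window held none of the 4 motifs, which says only that these letters were not in those 250 bases. No match overlapped another. In the GENCODE M21 annotation (GRCm38), Dbp spans chr7:45705088-45710203, Tef chr15:81802421-81826863, Hlf chr11:90336536-90390895 and Nfil3 chr13:52967209-52981073, all protein coding.

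The libraries were checked before the genes were read. Total counts ran from 15483922 to 20399718 in arcuate and from 1813994 to 10422914 in nodose, and arcuate and nodose libraries were prepared by different protocols, so the tissue cannot be told apart from its preparation. All 5 markers of arcuate neurons were detected in arcuate libraries of both genotypes, with Pomc from 45.8 to 110 CPM (counts scaled to the effective size of each library within a tissue). The libraries labelled nodose held little neuronal RNA. Their 5 neuron markers summed to between 12.7 and 61.7 CPM, against 2199 to 2824 CPM in arcuate, and 0 of 5 vagal sensory neuron markers reached the count filter. Skeletal muscle markers summed to between 3448 and 65246 CPM there and Schwann cell markers to between 10745 and 29582 CPM. The nodose values below are therefore values of the dissected tissue and not of its sensory neurons, and in such bulk samples fewer cells of a type and less RNA per cell cannot be told apart. In arcuate, 5 markers of the suprachiasmatic nucleus, the neighbouring central clock, summed to between 29.0 and 516 CPM over libraries. Avp alone ran from 5.11 to 465 CPM (median 155). Medians of the others were 21.4 for Rgs16, 3.70 for Grp, 1.13 for Vip and 0.643 for Prok2, so the sum mostly follows Avp. Although all mice were labelled male, 1 arcuate library (HepDKO ZT10 replicate 3) held 1914 counts of Xist and 1 nodose library (HepDKO ZT10 replicate 2) held 1694, where no other library held more than 13. All 4 genes passed the count filter in both tissues.

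In the arcuate nucleus Dbp was the member that changed most over the day, Tef changed slightly, and Hlf and Nfil3 did not pass the test. Dbp encodes the member whose RNA is known for the deepest daily swing of the family. In arcuate Control libraries Dbp had 25.1, 35.9 and 32.8 CPM at ZT4, 46.5, 46.7 and 43.8 at ZT10, 25.1, 20.6 and 21.9 at ZT16, and 18.2, 20.2 and 24.0 at ZT22. In arcuate HepDKO libraries it had 43.1, 31.3 and 38.5 CPM at ZT4, 52.3, 48.5 and 43.7 at ZT10, 29.8, 22.7 and 27.5 at ZT16, and 21.6, 22.3 and 19.6 at ZT22. All 6 libraries at ZT10 lay above all 6 at ZT4, while the neighbours ZT4 and ZT16, and ZT16 and ZT22, overlapped. The mean at ZT10 (46.9 ± 3.23 CPM, SD, n = 6) was 2.23-fold that at ZT22 (21.0 ± 2.06). The 24-h amplitude, taken from mean to peak on the log2 scale and averaged over genotypes, was 0.63 (SE 0.046, edgeR adjusted p 3.72e-08). It ranked second of 16102 arcuate genes by p, and it passed without each of the 24 arcuate libraries in turn.

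TEF is a close relative of DBP that binds the same element. In arcuate, Tef ranged from 261 to 313 CPM at ZT4 (median 294), from 307 to 327 at ZT10 (median 321), from 306 to 320 at ZT16 (median 311) and from 266 to 300 at ZT22 (median 284). The 6 libraries at ZT10 lay above the 6 at ZT22, by 1.13-fold in the mean, and neighbouring times in the order ZT10, ZT16, ZT4, ZT22 overlapped. Its amplitude was 0.10 (SE 0.0208, edgeR adjusted p 0.0152). With arcuate counts thinned to the nodose totals, an alternative added after the data were seen, its amplitude was 0.0909 and did not pass (edgeR adjusted p 0.0683).

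HLF, the third activator, is abundant in brain. In arcuate, Hlf ranged from 83.9 to 101 CPM at ZT4 (median 94.8), from 98.3 to 108 at ZT10 (median 101), from 88.1 to 99.5 at ZT16 (median 93.5) and from 77.7 to 100.1 at ZT22 (median 90.5). The times overlapped throughout, and the amplitude of 0.09 (SE 0.0265) did not pass (edgeR adjusted p 0.104). It passed at 0.0486 (edgeR adjusted p) without HepDKO ZT4 replicate 3. Nfil3, the repressor, had the lowest counts of the set in arcuate, from 111 to 231 per library. It ranged from 6.76 to 11.2 CPM at ZT4 (median 10.03), from 6.04 to 9.40 at ZT10 (median 7.62), from 9.20 to 13.3 at ZT16 (median 11.7) and from 7.67 to 10.6 at ZT22 (median 8.81). Its highest and lowest times, ZT16 and ZT10, also overlapped, and its amplitude of 0.17 (SE 0.0644) did not pass (edgeR adjusted p 0.213). In all 2 of 4 members passed in arcuate, where 3.86% of 16102 genes did (622 genes).

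**Figure D1:**
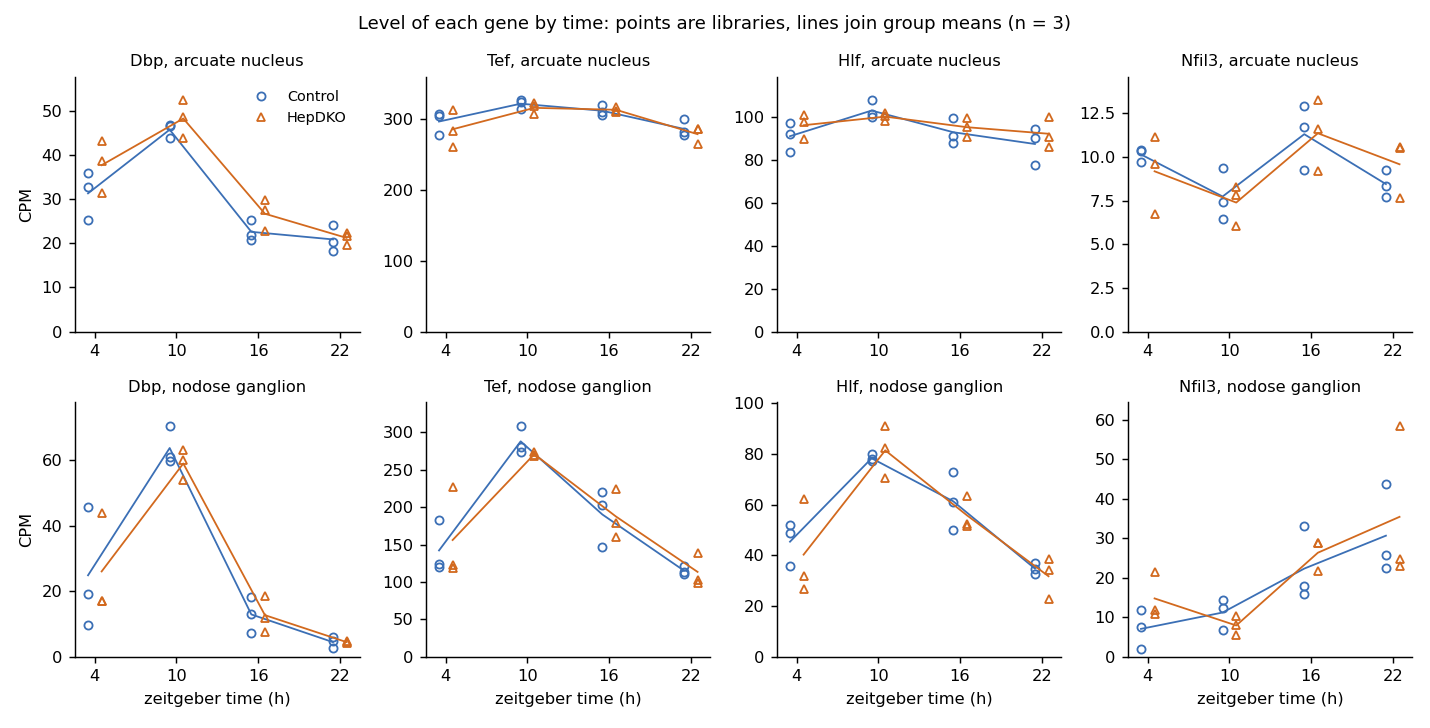
CPM of Dbp, Tef, Hlf and Nfil3 (columns) in arcuate (upper row) and nodose libraries (lower row) against zeitgeber time in hours, with Control as blue circles and HepDKO as orange triangles, and lines that join the means of 3 libraries. Each vertical axis starts at 0 and has its own scale. In nodose, Dbp, Tef and Hlf were highest at ZT10 and lowest at ZT22 and Nfil3 was highest at ZT22, while in arcuate Tef and Hlf stayed within a narrow band.

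In nodose libraries all 4 genes changed over the day, the 3 activators with a maximum at ZT10 and Nfil3 with higher levels in the dark hours. Nodose Control libraries had 9.82, 19.2 and 45.6 CPM of Dbp at ZT4, 59.7, 70.6 and 61.0 at ZT10, 18.3, 13.2 and 7.34 at ZT16, and 4.75, 5.97 and 2.71 at ZT22. Nodose HepDKO libraries had 17.1, 17.1 and 44.0 CPM at ZT4, 63.0, 60.1 and 54.0 at ZT10, 11.8, 18.7 and 7.60 at ZT16, and 4.19, 4.44 and 4.82 at ZT22. The 6 libraries at ZT10 lay above all others, the 6 at ZT22 lay below all others, and ZT4 and ZT16 overlapped. Within ZT4 the library numbered 3 of each genotype stood apart, at 45.6 and 44.0 CPM against 9.82 to 19.2 in the other 4. The mean at ZT10 (61.4 ± 5.42 CPM, SD, n = 6) was 13.7-fold that at ZT22 (4.48 ± 1.06), where Dbp counts ran from 11 to 43 per library. The amplitude was 1.94 (SE 0.173, edgeR adjusted p 9.81e-06).

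Tef and Hlf were also highest at ZT10 and lowest at ZT22 in nodose, with a smaller swing than Dbp. Tef ranged from 119 to 227 CPM at ZT4 (median 123.2), from 269 to 309 at ZT10 (median 274), from 147 to 224 at ZT16 (median 191) and from 98.4 to 139 at ZT22 (median 112). At ZT4 the libraries numbered 3 again stood apart, at 183 and 227 CPM against 119 to 124 in the other 4. All 6 libraries at ZT10 lay above the rest, whereas ZT16 and ZT4, and ZT4 and ZT22, overlapped. Its amplitude was 0.67 (SE 0.0763, edgeR adjusted p 0.000119), and the mean at ZT10 was 2.44-fold that at ZT22. Hlf ranged from 26.9 to 62.1 CPM at ZT4 (median 42.1), from 70.5 to 91.1 at ZT10 (median 78.8), from 49.9 to 72.7 at ZT16 (median 56.7) and from 22.7 to 38.5 at ZT22 (median 34.2). ZT10 and ZT22 did not overlap, but each neighbouring pair in the order ZT10, ZT16, ZT4, ZT22 did. Its amplitude was 0.67 (SE 0.0829, edgeR adjusted p 0.000292) and the mean at ZT10 was 2.40-fold that at ZT22.

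Nfil3 ran the other way in nodose. Control libraries had 1.96, 11.7 and 7.50 CPM at ZT4, 14.4, 12.3 and 6.87 at ZT10, 18.0, 33.1 and 15.8 at ZT16, and 43.7, 22.5 and 25.8 at ZT22. HepDKO libraries had 21.6, 11.9 and 10.8 CPM at ZT4, 5.44, 10.4 and 7.93 at ZT10, 21.6, 28.8 and 28.7 at ZT16, and 24.8, 23.0 and 58.5 at ZT22. All 12 libraries at ZT16 and ZT22 lay above all 6 at ZT10, while ZT22 overlapped ZT16 and ZT4 overlapped both ZT16 and ZT10. The lowest value, 1.96 CPM, rested on 4 counts in the shallowest library, Control ZT4 replicate 1. The mean at ZT22 (33.0 ± 14.8 CPM, SD, n = 6) was 3.45-fold that at ZT10 (9.57 ± 3.43), and the amplitude was 1.08 (SE 0.159, edgeR adjusted p 0.00292). In all 4 of 4 members passed in nodose, where 1.33% of 14867 genes did (198 genes).

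Markers of other cell types in nodose were set beside these rhythms, and their own change over time was not tested. The mean log2 CPM of the muscle markers averaged 11.6, 12.3, 11.3 and 11.8 from ZT4 to ZT22, and that of the adipocyte markers 5.24, 6.13, 6.31 and 5.36. With both scores as covariates the amplitudes were 1.79 for Dbp, 0.62 for Tef, 0.68 for Hlf and 1.21 for Nfil3, and all 4 passed with edgeR adjusted p of 0.00206 or lower. Without both ZT4 libraries numbered 3, an alternative chosen after the data were seen, the amplitudes were 1.88, 0.72, 0.74 and 1.05 in the same order, and all 4 passed with an edgeR adjusted p of 0.0098 or lower. Without the Xist-bearing nodose library they were 1.93, 0.67, 0.70 and 1.14, and without the Xist-bearing arcuate library the arcuate amplitudes were 0.64, 0.10, 0.09 and 0.19, with no call changed in these genotype-averaged tests. In arcuate the summed suprachiasmatic markers, among which Avp had the highest median, had medians of 202, 195, 201 and 122 CPM from ZT4 to ZT22. Their part in the arcuate rhythms was not tested.

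The rhythms were then fitted within each genotype. In arcuate, Dbp had an amplitude of 0.61 (SE 0.0653, edgeR adjusted p 0.000147) in Control and 0.64 (SE 0.0648, edgeR adjusted p 2.52e-05) in HepDKO. It was the only member that passed within a genotype there, 1 of 4 in each, against 0.261% of all genes for Control and 0.379% for HepDKO. Control amplitudes of arcuate Tef, Hlf and Nfil3 were 0.09, 0.12 and 0.10, and those of HepDKO 0.11, 0.06 and 0.24. Leaving out 1 library moved Nfil3 in Control between 0.0682 and 0.165 and Hlf in HepDKO between 0.0361 and 0.0911, and neither passed in any omission. In nodose, 3 of 4 members passed in each genotype, against 0.242% of all genes for Control and 0.121% for HepDKO. Nodose Dbp had 1.95 (SE 0.243) and 1.93 (SE 0.245) in the same order. Tef had 0.69 (SE 0.108) and 0.64 (SE 0.108), and Hlf had 0.63 (SE 0.117) and 0.72 (SE 0.118). Nfil3 had amplitudes as large as 1.06 (SE 0.233) and 1.14 (SE 0.226) but did not pass in either genotype alone (edgeR adjusted p 0.119 and 0.138). It passed in both by DESeq2 (adjusted p 0.00351 and 0.00148) and with the marker scores as covariates in edgeR (adjusted p 0.00483 and 0.00607). The nodose calls for Dbp in both genotypes and for Tef in Control held without each of the 24 libraries in turn. That for Hlf in Control lay near the threshold (edgeR adjusted p 0.0491), and with its amplitude between 0.607 and 0.656 it was lost in 18 of the 24 omissions (edgeR adjusted p up to 0.127), and also with the replicate block (edgeR adjusted p 0.0786) and with the covariates (0.0821). The call for Hlf in HepDKO was lost without HepDKO ZT10 replicate 1 or 3 or ZT22 replicate 1 or 3, and that for Tef in HepDKO without each single ZT10 library of HepDKO or ZT22 replicate 1 or 2 (edgeR adjusted p up to 0.123 and 0.170). Their amplitudes lay between 0.627 and 0.819 and between 0.595 and 0.724 over all 24 omissions.

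**Figure D2:**
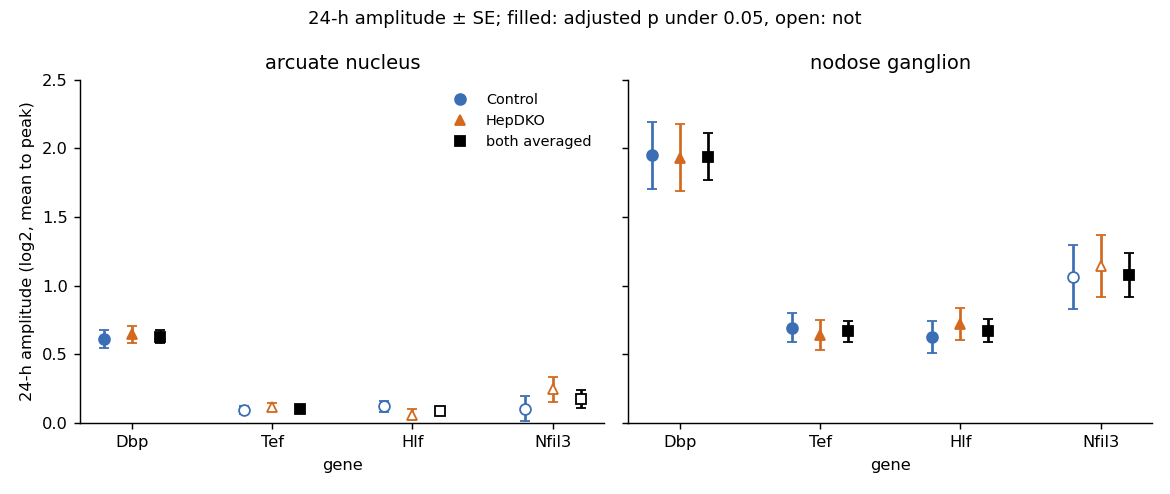
The 24-h amplitude (log2, mean to peak) ± SE of each gene in arcuate (left) and nodose (right), for Control (circles), HepDKO (triangles) and their average (squares), with filled symbols for an edgeR adjusted p under 0.05. In nodose the averaged amplitudes were 1.94, 0.67, 0.67 and 1.08 for Dbp, Tef, Hlf and Nfil3, against 0.63, 0.10, 0.09 and 0.17 in arcuate.

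No member passed the test of a rhythm difference between genotypes, taken as HepDKO minus Control of both rhythm coefficients. In arcuate the smallest unadjusted p among the 4 genes was 0.508 (Hlf, edgeR), and in nodose it was 0.336 (Nfil3, edgeR). By edgeR, 0% of 16102 arcuate genes and 0% of 14867 nodose genes passed this test, with 382 and 421 at an unadjusted p under 0.05, and DESeq2 called 1 and 0. Peak times shifted by -0.05 h (95% interval -1.38 to 1.29) for Dbp and 0.91 h (-2.12 to 3.95) for Tef in arcuate, as HepDKO minus Control. In nodose the shifts were -0.25 h (-1.74 to 1.25) for Dbp, -0.26 h (-2.21 to 1.70) for Tef, 0.12 h (-2.06 to 2.29) for Hlf and 1.92 h (-0.81 to 4.65) for Nfil3. Every interval included 0. Those of arcuate Tef, the widest, and of nodose Nfil3 allow a shift of several hours, and the others are not narrow enough to fix the peak times to the hour.

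The daily change was larger in nodose than in arcuate for all 4 genes. This was tested as the difference of the rhythm coefficients between the tissues' separate fits. The amplitude was higher in nodose by 1.31 for Dbp (adjusted p 0.00159, F test on the edgeR fits), by 0.57 for Tef (0.00115), by 0.58 for Hlf (0.00191) and by 0.90 for Nfil3 (0.0208), all on the log2 scale. Of 13937 genes tested in both tissues, 0.782% passed (109 genes, 101 of them with the larger amplitude in nodose). All 4 members passed without each of the 48 libraries in turn and under each of the 7 other settings tried. Tissue and library preparation cannot be told apart in this comparison.

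Mean levels between genes were compared per kilobase, as CPM divided by the length of all annotated exons. In arcuate, Tef had 38.3 ± 2.44 CPM per kb (SD, n = 24), Hlf 14.2 ± 1.03, Dbp 10.6 ± 3.66 and Nfil3 4.64 ± 0.962. Nodose libraries had 23.3 ± 8.75 CPM per kb of Tef, 9.61 ± 6.40 of Nfil3, 8.70 ± 7.88 of Dbp and 8.02 ± 2.98 of Hlf. Tef was the highest in both tissues. In nodose the SD of Nfil3, Dbp and Hlf includes their change over the day, so it cannot judge a difference between their means. With the longest transcript in place of all exons, Dbp (17.3) stood just above Hlf (16.8) in arcuate. In nodose Dbp then had 14.2, Nfil3 9.61 and Hlf 9.50, so the order of these genes depends on the length used. Which transcripts were present is not given by gene counts.

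In nodose the peak times put Tef and Hlf near the end of the light phase, Dbp earlier in it and Nfil3 in the dark phase. With 4 times 6 h apart, a peak time is the angle of a fitted 24-h wave, and it is given only for members that passed in the average over genotypes. In arcuate, Dbp peaked at ZT8.51 (95% interval 7.84 to 9.18) and Tef at ZT12.1 (10.6 to 13.6). In nodose, Dbp peaked at ZT9.14 (8.39 to 9.88), Tef at ZT11.1 (10.1 to 12.0), Hlf at ZT11.4 (10.3 to 12.5) and Nfil3 at ZT19.5 (18.0 to 20.9). The peak times of Dbp and Tef, as nodose minus arcuate, differed by intervals that included 0, at 0.63 h (-0.37 to 1.63) and -0.99 h (-2.79 to 0.80).

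Separations between members were estimated within the same libraries. Dbp led Tef by 3.55 h (95% interval 1.94 to 5.16) in arcuate and by 1.93 h (1.21 to 2.66) in nodose. In nodose Dbp also led Hlf by 2.28 h (1.24 to 3.32), while Tef and Hlf could not be separated (0.35 h, -0.70 to 1.40). Nfil3 peaked 10.3 h (8.58 to 12.1) after Dbp, 8.38 h (6.57 to 10.2) after Tef and 8.03 h (6.51 to 9.55) after Hlf. Exact opposition, 12 h, lay just inside the interval for Dbp and outside those for Tef and Hlf. Within Control alone the separation of Nfil3 from Dbp was 9.26 h (6.95 to 11.6) and did not reach 12 h. Within HepDKO alone it was 11.4 h (8.94 to 13.9), and the interval from Tef to Nfil3 (9.50 h, 6.86 to 12.1) also included 12 h. Without both ZT4 libraries numbered 3 the separations from Dbp, Tef and Hlf to Nfil3 were 9.78, 7.70 and 7.42 h.

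**Figure D3:**
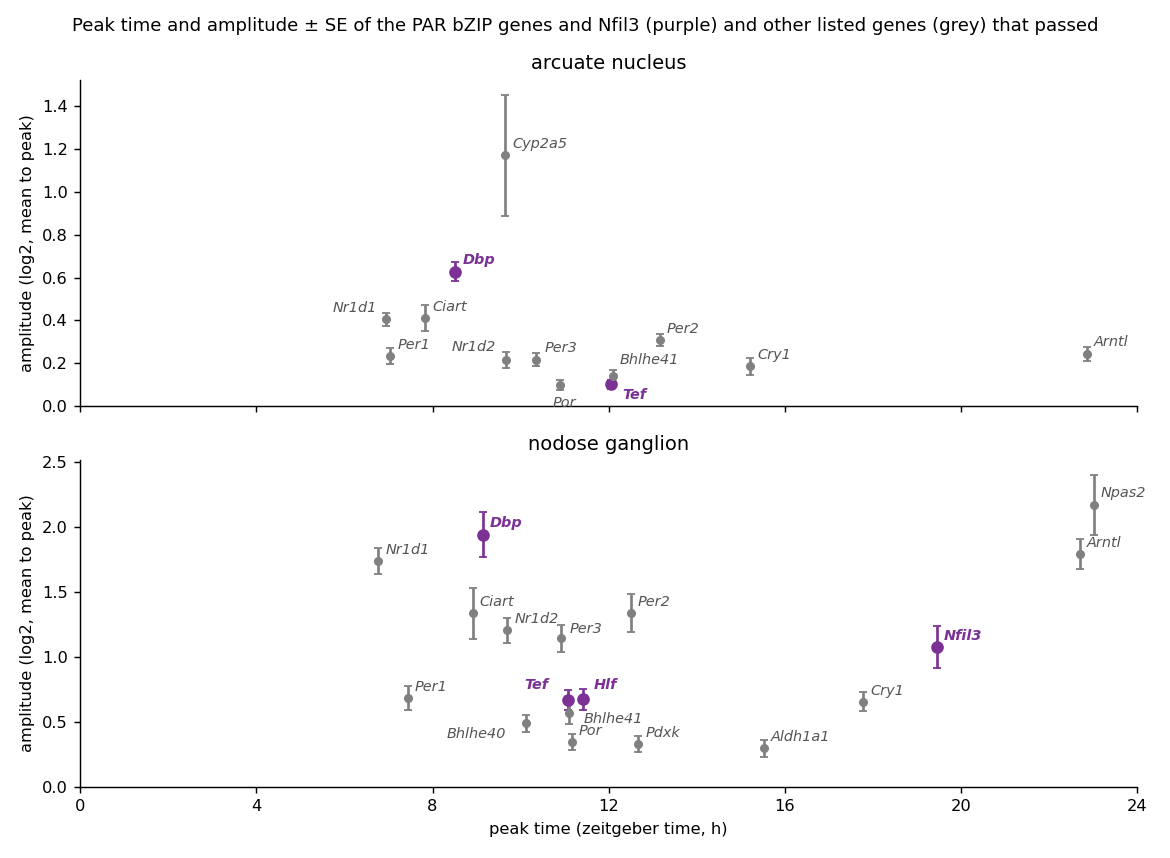
Fitted peak time (zeitgeber hours, horizontal) and 24-h amplitude ± SE (log2, vertical) of the members (purple) and of the other listed genes (grey) that passed in arcuate (top) and nodose (bottom). Dbp stood at ZT8.51 and ZT9.14 with the amplitudes 0.63 and 1.94, and Nfil3 in nodose lay at ZT19.5 between Cry1 and Arntl.

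The balance between activators and repressor was read within each library as the log2 ratio of counts to Nfil3, which does not depend on library-size scaling. In nodose the Dbp ratio was 1.31 ± 1.17, 2.76 ± 0.52, -0.97 ± 0.66 and -2.82 ± 0.64 from ZT4 to ZT22 (mean ± SD, n = 6). The median over libraries of the ratio itself was 6.29 at ZT10 and 0.139 at ZT22. The 6 ratios at ZT10 ran from 2.05 to 3.53 and the 12 at ZT16 and ZT22 from -3.60 to 0.02, without overlap. The Tef ratio in nodose went from 4.95 ± 0.49 at ZT10 to 1.89 ± 0.46 at ZT22, again without overlap, and stayed positive in every library. The Hlf ratio went from 3.14 ± 0.63 at ZT10 to 0.09 ± 0.83 at ZT22, where it turned sign between libraries (-1.37 to 0.74). In arcuate the Dbp ratio was 1.83 ± 0.46, 2.65 ± 0.32, 1.12 ± 0.35 and 1.23 ± 0.16 from ZT4 to ZT22, so Dbp counts exceeded Nfil3 counts at all times. The arcuate Tef ratios had means between 4.80 and 5.41 and the Hlf ratios between 3.07 and 3.76. A count ratio also carries the lengths of both transcripts, so its zero has no meaning as equal molecule number, and the course over time is what can be read.

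**Figure D4:**
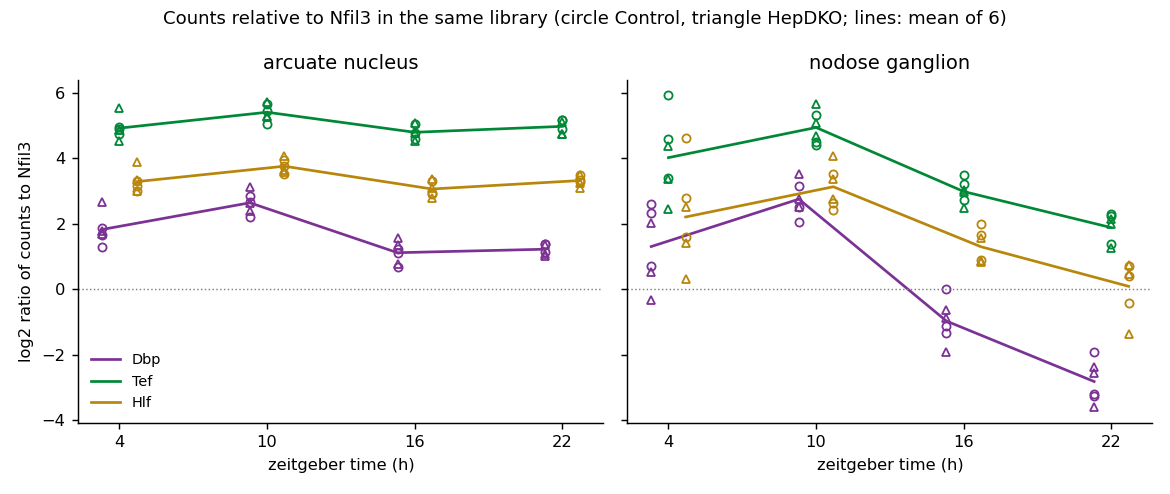
Log2 ratio of the counts of Dbp, Tef and Hlf to those of Nfil3 in the same library, by zeitgeber time in hours, in arcuate (left) and nodose (right), with circles for Control, triangles for HepDKO and lines through the means of 6 libraries. In nodose the mean for Dbp went from 2.76 at ZT10 to -2.82 at ZT22, while in arcuate it stayed between 1.12 and 2.65.

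A departure from a 24-h wave can be seen with these times only as a 12-h component, which sets ZT4 and ZT16 against ZT10 and ZT22 and is given from mean to peak. No member passed. Nfil3 in arcuate came nearest, with higher mean levels at ZT4 and ZT16 (9.67 and 11.3 CPM) than at ZT10 and ZT22 (7.57 and 9.02), a component of 0.17 (95% interval 0.08 to 0.27) and an unadjusted edgeR p of 0.000821 (edgeR adjusted p 0.300). Over all genes, 0.0124% passed in arcuate (2 genes) and 0% in nodose by edgeR. At an unadjusted edgeR p under 0.05 there were 1143 arcuate genes (7.1%) and 1029 nodose genes (6.92%), and DESeq2 called 20 and 7. By p, Nfil3 ranked 44 of 16102 genes in arcuate. In nodose the components of the 4 genes lay between -0.06 and 0.07.

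Mean levels were then compared between genotypes. No member passed at any time or over the times, in either tissue. Averaged over times, arcuate Dbp was 0.15 higher in HepDKO on the log2 scale (95% interval 0.01 to 0.29, unadjusted edgeR p 0.0274, edgeR adjusted p 0.525), and its mean was higher in HepDKO at each of the 4 times. By time the arcuate Dbp differences were 0.27, 0.08, 0.24 and 0.03 from ZT4 to ZT22, and the libraries of the genotypes overlapped at each time. The difference at ZT4 had an unadjusted edgeR p of 0.0446 (edgeR adjusted p 0.404). Over the omissions of 1 library the differences ran from 0.139 (without Control ZT4 replicate 1) to 0.384 at ZT4, from 0.0145 to 0.143 at ZT10 and from 0.151 to 0.341 at ZT16. Arcuate Tef differed by -0.03 (-0.09 to 0.03), Hlf by 0.04 (-0.04 to 0.12) and Nfil3 by -0.01 (-0.20 to 0.19). Without 1 library the Tef average ran from -0.0436 to -0.0131 and that of Hlf from 0.0170 (without Control ZT22 replicate 2) to 0.0529. In nodose the averaged differences were -0.06 (-0.56 to 0.43) for Dbp, -0.0007 (-0.23 to 0.23) for Tef, -0.10 (-0.35 to 0.15) for Hlf and 0.22 (-0.27 to 0.70) for Nfil3. Without 1 library the nodose Nfil3 average ran from 0.0622 (without HepDKO ZT22 replicate 3) to 0.335, and that of Hlf from -0.218 (without HepDKO ZT4 replicate 3) to -0.0491 (without HepDKO ZT4 replicate 1). The largest single-time difference was that of nodose Nfil3 at ZT4, 0.92 (-0.14 to 1.99), where the genotypes overlapped and the lowest Control library held 4 counts. It was 0.54 without HepDKO ZT4 replicate 1 and 1.44 without Control ZT4 replicate 2. The nodose intervals were wider than the arcuate ones for every member, and the arcuate averages of Tef and Hlf had intervals that ended at or inside 0.12 in either direction.

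After adjustment edgeR called no gene in the genotype tests with all libraries, whereas unadjusted calls and DESeq2 calls were present. In arcuate edgeR called 0% of 16102 genes over the times and 0% at each single time. From the averaged test through ZT4 to ZT22, at an unadjusted p under 0.05, these tests held 1387, 1922, 377, 440 and 599 genes, and DESeq2 called 23, 5, 0, 0 and 0. In nodose edgeR called 0% of 14867 genes over the times and 0% at each of the 4 times, with 497, 351, 304, 734 and 781 genes in the same order at an unadjusted p under 0.05, and DESeq2 called 3, 0, 0, 0 and 0.

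**Figure D5:**
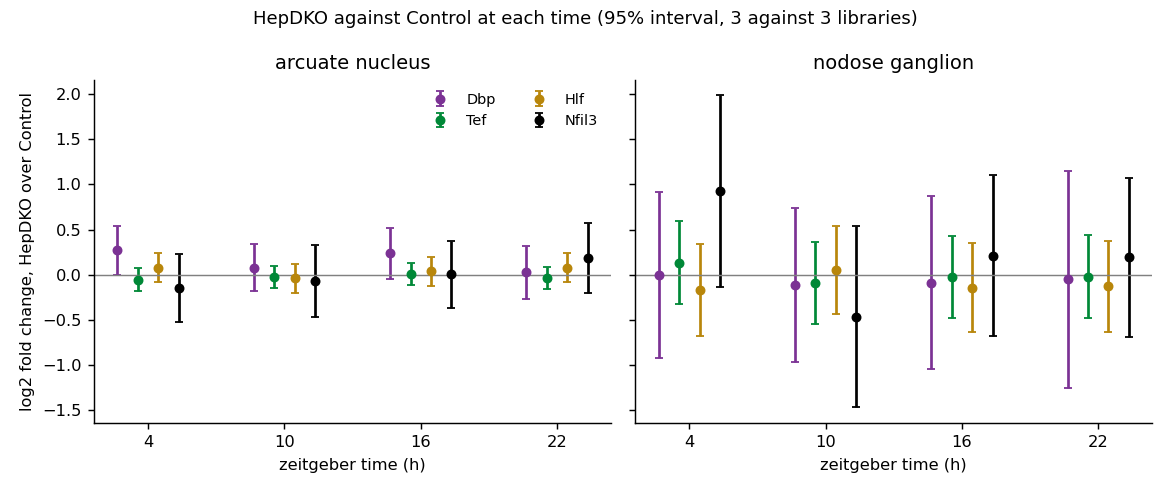
Log2 fold change of HepDKO over Control for each member at each zeitgeber time (hours), with 95% intervals, in arcuate (left) and nodose (right), 3 against 3 libraries. Every interval includes 0, that of arcuate Dbp at ZT4 (0.27) only at its lower end, and the nodose intervals are wider than the arcuate ones.

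Other genes of the pathway were read from lists of regulators, targets and relatives, which share some members. Among 5 genes of the positive arm and its ROR-element targets, 2 passed the averaged rhythm test in arcuate, Arntl (amplitude 0.24, peak ZT22.9) and Cry1 (0.19, ZT15.2), and 3 in nodose, Arntl (1.79, ZT22.7), Npas2 (2.17, ZT23.0) and Cry1 (0.65, ZT17.8). Arntl encodes BMAL1, the activator that drives E-boxes, and Npas2 encodes a CLOCK paralogue. Nfil3 in nodose thus peaked after Cry1 and before Arntl in the order of fitted times. Of 10 E-box-driven clock genes, 7 passed in arcuate and 8 in nodose, against 3.86% and 1.33% of all genes. In nodose they included Nr1d1 (1.74, ZT6.76), Nr1d2 (1.20, ZT9.70), Per3 (1.14, ZT10.9) and Per2 (1.34, ZT12.5), and Dbp, Tef and Hlf lay among them in time. In arcuate they included Nr1d1 (0.41, ZT6.95), Per2 (0.31, ZT13.2), Per3 (0.22, ZT10.3) and Ciart (0.41, ZT7.84). Per genes encode the period repressors, Nr1d genes the REV-ERB receptors and Ciart a repressor of CLOCK and BMAL1.

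Genes listed as targets of D-boxes were largely the same clock genes, and 6 of 8 passed in arcuate and 6 of 7 tested in nodose. Rora, which encodes a receptor that competes with REV-ERB, was the gene of this list that did not pass in nodose (0.24, edgeR adjusted p 0.247), named after its values were seen. Among 8 enzymes and receptors known downstream of PAR bZIP factors in liver, 2 of 6 tested passed in arcuate and 3 of 5 tested in nodose. Por, the electron donor of cytochrome P450 enzymes, passed in both tissues (0.10, ZT10.9 in arcuate and 0.35, ZT11.2 in nodose). Pdxk, which makes the active form of vitamin B6, passed in nodose (0.33, ZT12.7) but not in arcuate (0.04, edgeR adjusted p 0.524). Aldh1a1, a retinaldehyde dehydrogenase, passed in nodose (0.30, ZT15.5, edgeR adjusted p 0.0485) but not in arcuate (0.12). Cyp2a5, a cytochrome P450, passed in arcuate (1.17, ZT9.65) at a mean of only 0.587 CPM, but not in nodose (0.87). Of 6 tested C/EBP family genes, related bZIP factors, 0 passed in either tissue by edgeR, with 1 in each at an unadjusted p under 0.05, while DESeq2 called 1 in arcuate and 0 in nodose. Of all genes, edgeR called 3.86% and 1.33%, and 21.6% and 12.8% had an unadjusted p under 0.05, which is near 1 of 6. DESeq2 also called 4 of the 5 positive-arm genes in arcuate. Median amplitudes of the positive-arm, E-box, D-box, downstream and C/EBP lists were 0.20, 0.22, 0.22, 0.11 and 0.08 in arcuate, where the median of all genes was 0.07. In nodose they were 0.65, 0.91, 1.14, 0.33 and 0.18, against 0.12 for all genes. The difference between tissues passed for 3 of 5, 6 of 10, 5 of 7, 1 of 5 and 0 of 6 genes in the same order, with 1 C/EBP gene at an unadjusted p under 0.05, against 0.782% of all genes.

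The genes most like each member were found by Pearson's r of log2 CPM over the 24 libraries of a tissue, as a description over points that share time of day, depth and library composition. In arcuate, Dbp was most like Nr1d1 (r = 0.868), Lfng (0.824) and Bdh1 (0.811). In nodose it was most like Nr1d2 (0.946), Per3 (0.858) and Bhlhe40 (0.853). Tef and Hlf in nodose both had Per3 first (0.916 and 0.954) and Bhlhe41 second (0.892 and 0.919), followed by Nr1d2 (0.882) for Tef and Maco1 (0.875) for Hlf. Clock genes thus led the lists of all 3 activators in nodose. In arcuate, Tef was most like Arhgef26 (0.771), Ifit3b (0.765) and Sft2d2 (0.763), and Hlf was most like Rrp7a (0.766), Gle1 (0.687) and Tunar (0.680). Nfil3 was most like Zmym1 (0.814), Tra2a (0.799) and Bcl9l (0.791) in arcuate and Ppp1r3c (0.882), Kalrn (0.804) and Txn1 (0.800) in nodose. Among the members, Tef and Hlf had r = 0.875 in nodose and 0.618 in arcuate, Dbp and Tef 0.851 and 0.424, and Dbp and Hlf 0.748 and 0.580. Nfil3 had r = -0.589 with Dbp, -0.320 with Tef and -0.510 with Hlf in nodose, and -0.500, -0.199 and -0.195 in arcuate.

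One overlap bears on the Dbp counts. On the opposite strand Sphk2 covers 539 of the 2993 exon bases of Dbp, and whether the counting used strand is not given in the sources used here. Sphk2 had a median of 31.8 CPM in arcuate with an amplitude of 0.12 and a fitted peak at ZT17.5 (edgeR adjusted p 0.0297), and 26.6 CPM in nodose with an amplitude of 0.09 (edgeR adjusted p 0.716). Reads from the shared bases could not be told apart between the genes if strand was not used. At Tef, 193 exon bases of 7867 lie within the antisense gene Gm17597, which had a median of 1.43 CPM in arcuate.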

How the data were processed

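RNA was sequenced from pooled arcuate punches and nodose ganglia, 24 libraries each. The deposited values are raw read counts per gene symbol. Per the submitters' processing notes, FastQC 0.11.7, Trim Galore 0.6.10 and STAR 2.7.10b were used with build mm10, and the counting tool, annotation and strand setting are not given in the sources used here. Arcuate and nodose had separate fits in R 4.3.3 with edgeR 4.0.16 and limma 3.58.1: filterByExpr on the 8 groups, TMM factors, a robust quasi-likelihood fit and 1 mean per group, which left 16102 and 14867 genes. Rhythm tests joined the contrasts of ZT4 with ZT16 and of ZT10 with ZT22 (2 degrees of freedom), and p-values were Benjamini-Hochberg adjusted over all genes of a test (21 tests, threshold 0.05). The tissue difference was an F test on both fits. Peak times came from log2 CPM (prior count 2), and 95% intervals used 16 residual degrees of freedom. DESeq2 1.42.0 was an alternative. Simulated counts were first used to try the averaged, Control and genotype-difference rhythm tests, the 12-h component and the tissue difference. Genotype tests averaged over times and at ZT4 were also tried on them, while the remaining tests were not. Among 48 replicate pairs the least chi-square divided by its degrees of freedom was 2.97, so no replicates within a group were repeats of each other. Libraries of a group are pools of separate mice, and the p-values measure the spread between pools.

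The members and the gene lists were chosen with earlier results of these data known. The text names the 4 members in every comparison, up to 4 genes of each list with the lowest p among those that passed, and the 3 genes most like each member.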

Additional observations from a re-analysis of the deposited data

Results flagged for a closer look

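In 3 of 32 sets of 6 libraries (1 gene, 1 tissue and 1 time, both genotypes), 1 library lay apart from the other 5, where chance gives about 1 in 20. Tef in nodose at ZT10 was 309 CPM in Control replicate 1, above the others. Hlf in nodose at ZT22 was 22.7 CPM in HepDKO replicate 3, below the others. Nfil3 in arcuate at ZT4 was 6.76 CPM in HepDKO replicate 1, below the others.

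The 24-h rhythm differed between tissues for all 4 genes, with adjusted p of 0.00159 for Dbp, 0.00115 for Tef, 0.00191 for Hlf and 0.0208 for Nfil3 (F test on the edgeR fits), and the amplitude was larger in nodose for each.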

How the results depend on the processing

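In nodose the averaged rhythm passed for all 4 members without each library in turn and under 6 other settings, and the tissue difference under 7. DESeq2 called more genes, for causes not tested: in arcuate 1075 for the averaged rhythm, 101 in Control, 322 in HepDKO, 1 for the genotype difference in rhythm, 20 for the 12-h component, 23 for the averaged genotype difference and 5 at ZT4, and in nodose 383, 135 and 68 for the rhythms, 7 for the 12-h component and 3 for the averaged genotype difference. The tissue difference called 169 genes in 1 fit over both tissues. The covariates gave 36 nodose genes for the rhythm in HepDKO, and thinning gave 237 arcuate genes for the averaged rhythm. TMM against RLE factors changed no call of a member.

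Same-numbered libraries correlated between -0.128 and 0.0770 in arcuate and between -0.206 and 0.364 in nodose (0 and 7 of 12 pairs over 0.1). In nodose the median was 0.143, against -0.0708 for pairs with other numbers, and the deviations had the same sign in 11 of 12 pairs for Tef, 8 for Hlf, 7 for Dbp and 4 for Nfil3, but not every pair exceeded 0.1 and the labels tie the numbers to nothing shared, so the fits are not paired. The replicate block changed 1 member call, Hlf in nodose Control (edgeR adjusted p 0.0786). The nodose Dbp difference at ZT4, near 0, turned sign with the block (0.012), with the block within time points (0.11), with no filter (0.0048) and by DESeq2 (0.040). With covariates, differences turned sign for nodose Tef at ZT4 (-0.024), Dbp at ZT10 (0.049) and Nfil3 at ZT16 (-0.27) and ZT22 (-0.091), and so did the 12-h components of Tef (0.0093) and Nfil3 (0.017).

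Without 1 library at a time, genes called ranged in arcuate from 287 to 1031 for the averaged rhythm (lowest without HepDKO ZT16 replicate 2, highest without HepDKO ZT4 replicate 2), 11 to 117 in Control, 31 to 312 in HepDKO, 2 to 10 for the 12-h component, 0 to 7 for the averaged genotype difference, 0 to 3 at ZT4 and 0 to 5 at ZT22. In nodose they ranged from 129 to 276 for the averaged rhythm, 15 to 71 in Control, 0 to 1 for the 12-h component, the averaged genotype difference and ZT10, and for the tissue difference from 64 to 158. None of the following differences, which turned sign without 1 library, had passed. In arcuate they were Dbp at ZT22 (-0.061 to 0.14), Tef at ZT4 (-0.12 to 0.0080), Tef at ZT16 (-0.0080 to 0.026), Hlf at ZT16 (-0.0013 to 0.088) and ZT22 (-0.0032 to 0.14), Nfil3 at ZT4 (-0.31 to 0.042), ZT10 (-0.19 to 0.093), ZT16 (-0.12 to 0.13) and averaged (-0.048 to 0.040), and the 12-h component of Tef (-0.0047 to 0.0096). In nodose they were Dbp averaged (-0.22 to 0.12), at ZT4 (-0.60 to 0.75), ZT16 (-0.49 to 0.21) and ZT22 (-0.26 to 0.16), Tef averaged (-0.10 to 0.048), at ZT4 (-0.24 to 0.35), ZT16 (-0.19 to 0.068) and ZT22 (-0.20 to 0.068), Hlf at ZT4 (-0.62 to 0.054), ZT10 (-0.045 to 0.14) and ZT22 (-0.28 to 0.058), and Nfil3 at ZT22 (-0.38 to 0.57). So did the nodose 12-h components of Dbp (-0.023 to 0.11), Hlf (-0.075 to 0.0097) and Nfil3 (-0.13 to 0.011), and the log2 ratio of Hlf to Nfil3 at ZT22 (-0.038 to 0.38). Nodose counts ran down to 4 for Nfil3 and 11 for Dbp in single libraries, which limits the precision there.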
